A study of Homo sapiens with 6 samples.

Results

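The genes described here are 40 genes of NF-kB signaling and its output, picked by gene symbol from the 20020 genes of a count table: 5 NF-kB subunits, 7 inhibitors and feedback genes, 3 subunits of the IKK complex, 4 TRAF and IAP adaptors, 10 chemokines, and 11 cytokines and adhesion genes. RNA-seq was done on HCT116, a human colorectal carcinoma cell line, in 3 libraries of CAD-KO2+IR cells and 3 of sgVec+IR cells. CAD-KO2+IR cells are a stable line made with a lentiCRISPRv2 guide against CAD, the caspase-activated DNase encoded by DFFB, and sgVec+IR cells are the vector control. Both groups were irradiated (IR), so differences are between irradiated lines. The labels give the irradiation only in the sample titles. That it was 8 Gy, 24 h before collection, and that the guide was KO2, was read from the study's figure legends. A single knockout line was sequenced, and whether it is a clone or a pool is not stated in the sources used here. Nothing in the labels says that the libraries of a group came from separate cultures, so the tests measure the spread between these libraries, which may be technical. In bulk RNA, fewer cells that express a gene and less RNA per cell cannot be told apart.

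NF-kB is a family of dimeric transcription factors formed by RELA, RELB, REL and the products of NFKB1 and NFKB2. In resting cells, inhibitors of the IκB family such as NFKBIA hold the dimers in the cytoplasm. The IKK complex (CHUK, IKBKB and IKBKG) marks the inhibitors for degradation, and the released dimers bind κB sites and switch on chemokines, cytokines and their own inhibitors. DNA damage and the cGAS-STING pathway are both known inputs to IKK, and cytosolic DNA sensing by STING also leads to IFNB1, CXCL10 and CCL5 through IRF3.

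The libraries held 14032994 to 19574144 counts. Cell type was checked on marker genes, which cannot tell HCT116 from other epithelial lines. Of 10 epithelial markers, 8 had at least 1 CPM (read counts scaled to library size, with TMM factors) in every library, VIL1 was near 0, and the summed level was 2174 to 4228 CPM in sgVec+IR and 2863 to 4085 CPM in CAD-KO2+IR. The summed level of 8 leukocyte markers was 1.48 to 2.33 CPM in CAD-KO2+IR against 2.05 to 6.37 CPM in sgVec+IR, with PTPRC at 3 counts in all and CD3E at 0. The 4 endothelial markers summed to 1.002 to 2.22 CPM in CAD-KO2+IR against 4.16 to 6.07 CPM in sgVec+IR. Of 6 fibroblast markers, which summed to 25.9 to 39.8 CPM and 11.99 to 48.9 CPM, COL1A1 alone had at least 1 CPM in every library, and DCN and LUM were at 0. The part of these markers in the results was not tested. DFFB, the targeted gene, had 10.03, 10.1 and 12.4 CPM in CAD-KO2+IR against 21.8, 22.9 and 20.9 CPM in sgVec+IR, which is −1.02 on the log2 scale (standard error 0.193, adjusted p = 0.55) in edgeR's quasi-likelihood test. sgVec+IR replicate 3 stood apart from the other libraries (Pearson correlation of log2 CPM across genes 0.886 to 0.927, against 0.954 to 0.993 among the others), and CAD-KO2+IR replicate 2 was the next most distant. Log2 fold changes of members are therefore given with and without sgVec+IR replicate 3.

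The signaling genes were expressed and most of the secreted products were at or near 0. Of the 40 members, 26 had enough counts to be tested and 23 had at least 1 CPM in every library. All 19 subunits, inhibitors, IKK subunits and adaptors were tested, against 2 of the 10 chemokines (CXCL8 and CXCL16) and 5 of the 11 cytokine and adhesion genes (IL11, IL18, LIF, CSF1 and ICAM1). Of the 14 members that were not tested, none had more than 39 counts over the 6 libraries, 7 had at most 10, and CXCL5 and TNF had none.

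A gene counted as called when edgeR's adjusted p was under 0.05 with at least a 1.5-fold difference. By this rule 0 members were called up or down, where 0.0309% of 12925 genes were called. Without adjustment, edgeR likewise put 0 members under the same threshold, against 2.85% of all genes. DESeq2 called 0 members, against 0.364% of all genes, and put NFKB1 alone under 0.05 without adjustment, against 3.21% of all genes. Of the 26 tested members 17 had a log2 fold change above 0 and 9 below (13 and 13 when scaled by library size alone), with a median of 0.05 where the median of all genes tested was −0.01. All 26 intervals held 0, and 14 of them lay within 1 log2 unit of 0.

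The DNA upstream of members picked by hand is shown because κB sites are the elements that NF-kB dimers bind. Of the members shown, NFKBIA, TNFAIP3 and CXCL8 were tested and the others had too few counts. Windows of 250 bases before the annotated start came from RefSeq (GRCh38.p14), where 32 members had 48 windows. The κB consensus, searched on both strands, was found in 20 of these 48 windows (41.7%), against 9.96% of 35116 windows of all genes. The members were picked as genes of NF-kB signaling and its output, so a higher share may come from that choice alone. Some members also had several windows, and those of CXCL1, CXCL2 and CXCL3 are much alike. No conclusion is drawn from the difference. Matches were present for 9 of 19 tested members with a window and for 9 of 13 members that were not tested. The lines below give the bases 100 to 41 before the start, 5′ to 3′ on the strand of the gene, with each match to the consensus in capitals.
NFKBIA: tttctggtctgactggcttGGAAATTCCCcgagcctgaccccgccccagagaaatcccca
TNFAIP3: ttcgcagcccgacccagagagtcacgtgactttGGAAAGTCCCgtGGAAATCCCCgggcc
CXCL1: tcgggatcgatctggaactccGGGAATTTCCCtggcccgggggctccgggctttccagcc
CXCL2: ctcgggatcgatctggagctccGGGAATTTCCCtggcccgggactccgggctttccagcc
CXCL3: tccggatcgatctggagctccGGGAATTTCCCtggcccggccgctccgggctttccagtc
CXCL5: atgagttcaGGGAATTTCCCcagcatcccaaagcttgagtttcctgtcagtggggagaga
CXCL8: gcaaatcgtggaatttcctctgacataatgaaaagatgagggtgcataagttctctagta
CCL20: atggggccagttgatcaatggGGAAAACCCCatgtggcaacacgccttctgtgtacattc
IL6: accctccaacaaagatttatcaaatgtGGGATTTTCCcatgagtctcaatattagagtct
IFNB1: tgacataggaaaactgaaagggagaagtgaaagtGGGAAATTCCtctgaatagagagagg
These windows lie at chr14:35404790-35404849 (reverse strand) for NFKBIA, chr6:137867159-137867218 (forward strand) for TNFAIP3, chr4:73869293-73869352 (forward strand) for CXCL1, chr4:74099236-74099295 (reverse strand) for CXCL2, chr4:74038730-74038789 (reverse strand) for CXCL3, chr4:73998718-73998777 (reverse strand) for CXCL5, chr4:73740469-73740528 (forward strand) for CXCL8, chr2:227813742-227813801 (forward strand) for CCL20, chr7:22727100-22727159 (forward strand) for IL6 and chr9:21077983-21078042 (reverse strand) for IFNB1. In CXCL1, CXCL2, CXCL3 and CXCL5, which encode neutrophil-attracting chemokines, the capitals spell the same 11 bases, where matches on both strands overlap by all but 1 base. In TNFAIP3 a pair of matches stands side by side. CXCL8 had no match to these letters in its window, which says nothing about binding there. CXCL10 had κB matches beginning 177 and 122 bases before its start and a match to the core of the interferon-stimulated response element (GAAA, any 2 bases and GAAA on either strand, found in 3.02% of all windows and among the members only in RELA and CXCL10) at 221 bases, shown here over chr4:76023498-76023747 (reverse strand).
CXCL10: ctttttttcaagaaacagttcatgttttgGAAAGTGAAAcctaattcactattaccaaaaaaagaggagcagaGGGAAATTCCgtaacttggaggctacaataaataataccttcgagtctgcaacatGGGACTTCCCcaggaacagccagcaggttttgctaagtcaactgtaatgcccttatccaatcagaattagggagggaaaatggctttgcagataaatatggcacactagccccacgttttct
A match is a description of the letters and not evidence of binding in these cells.

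Among the NF-kB subunits, levels per length were highest for NFKB2 (mean 27.4 CPM per kb of exon over 6 libraries) and RELA (17.2 CPM per kb), followed by NFKB1 (8.92), RELB (3.69) and REL (1.15, each in CPM per kb). The ranges over libraries were 14.8 to 33.7 CPM per kb for NFKB2, 10.9 to 20.4 for RELA and 5.57 to 11.2 for NFKB1. These ranges overlapped between neighbours, but within every library NFKB2 was above RELA and RELA above NFKB1. RELB (1.98 to 4.79 CPM per kb) lay below NFKB1 in every library. It was above REL (0.74 to 2.58 CPM per kb) in every library except sgVec+IR replicate 3.

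NFKB1, which encodes p105 and its product p50, had 67.3, 57.9 and 69.9 CPM in the CAD-KO2+IR libraries (here and below in the order of replicates 1 to 3) and 52.6, 52.4 and 34.8 CPM in the sgVec+IR libraries, or means of 65.0 ± 6.29 and 46.6 ± 10.2 CPM (SD, n = 3 each). Every CAD-KO2+IR library was above every sgVec+IR library, which held for 1 of 26 tested members, none having the reverse order, and for 10.2% of all genes tested when both directions are counted. A two-sided exact permutation test gave p = 0.1, the lowest value that this test can give for 3 against 3 libraries. Groups that do not overlap always give that value, so the test adds nothing to the order of the libraries. The log2 fold change was 0.48 (standard error 0.215, 95% interval −0.028 to 0.99, adjusted p = 0.9999, edgeR's quasi-likelihood test). Without sgVec+IR replicate 3 it was 0.31, with an adjusted p of 0.43 in edgeR.

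RELA, the main transactivating subunit, had 101, 83.3 and 98.7 CPM in CAD-KO2+IR against 111, 111 and 59.3 CPM in sgVec+IR. The groups overlapped through sgVec+IR replicate 3, which was the lowest of the 6 libraries. The log2 fold change was 0.0065 (95% interval −0.62 to 0.64), −0.018 when scaled by library size alone, and −0.24 without that library. NFKB2, which encodes p100 and its product p52 of the alternative pathway, showed the same arrangement, with 143, 92.4 and 134 CPM in CAD-KO2+IR against 149, 151 and 66.4 CPM in sgVec+IR. Its log2 fold change was 0.014 (95% interval −0.79 to 0.82), −0.0086 when scaled by library size alone, and −0.28 without sgVec+IR replicate 3. RELB, the partner of p52, lay between 5.99 and 14.5 CPM with overlapping groups and a log2 fold change of 0.16, or −0.11 without that library.

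REL went the other way in the same library. It had 11.1, 13.1 and 12.01 CPM in CAD-KO2+IR. In sgVec+IR it had 11.0 and 9.72 CPM in replicates 1 and 2 and 34.0 CPM in replicate 3. Its log2 fold change of −0.59 (standard error 0.490) became 0.22 without that library. In GENCODE, REL shares 5702 exon bases with a noncoding gene on the same strand that is not in the table of counts, so its reads are uncertain.

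**Figure D1:**
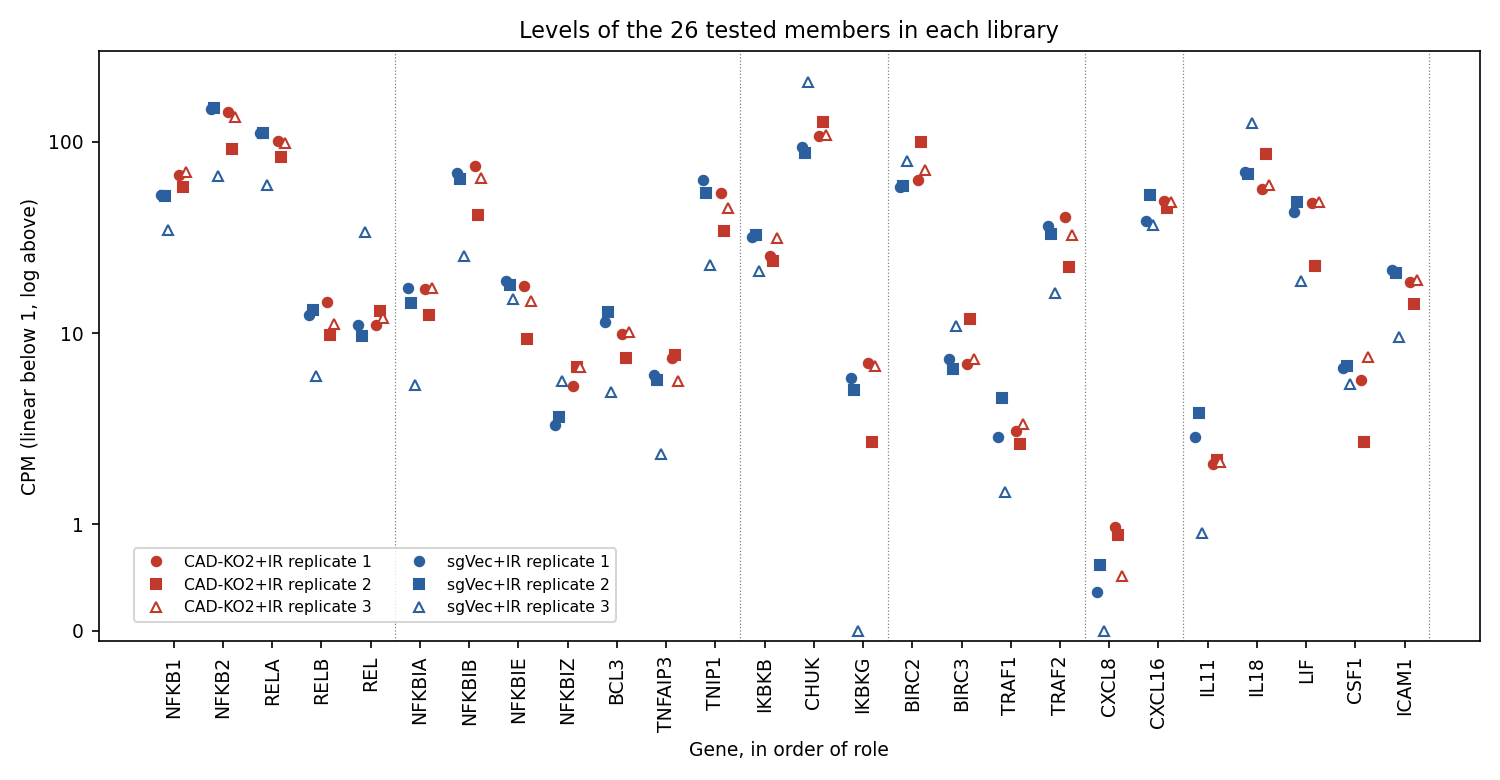
Levels of the 26 tested members in each library, in CPM (linear below 1 and logarithmic above), with sgVec+IR in blue and CAD-KO2+IR in red, a marker shape for each replicate and dotted lines between roles. The open blue triangle, sgVec+IR replicate 3, lies below the other libraries for most members but above them for REL (34.0 CPM), CHUK (207 CPM) and IL18 (126 CPM).

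Of the inhibitors and feedback genes, all 7 were tested, 4 had a log2 fold change above 0 and 3 below, and none passed the test. Without sgVec+IR replicate 3 the split was 2 above and 5 below, and the median went from 0.20 to −0.13. NFKBIA, the IκBα that is rapidly resynthesized after NF-kB activation, had 17.0, 12.4 and 17.3 CPM in CAD-KO2+IR against 17.3, 14.4 and 5.36 CPM in sgVec+IR. Its log2 fold change was 0.32 over 6 libraries and −0.03 without sgVec+IR replicate 3. TNFAIP3 encodes the deubiquitinating enzyme A20, and its levels of 5.64 to 7.70 CPM in CAD-KO2+IR against 2.33 to 6.05 CPM in sgVec+IR overlapped (log2 fold change 0.55, or 0.24 without that library).

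NFKBIZ, an atypical nuclear IκB protein that helps induce a subset of targets, had 5.31, 6.64 and 6.66 CPM in CAD-KO2+IR against 3.30, 3.63 and 5.64 CPM in sgVec+IR. The means were 6.21 ± 0.775 and 4.19 ± 1.27 CPM (SD, n = 3 each), and only sgVec+IR replicate 3 reached into the range of CAD-KO2+IR. In edgeR the difference was 0.57 on the log2 scale (standard error 0.298, 95% interval −0.13 to 1.28, adjusted p = 0.9999) and 0.84 without that library (unadjusted p = 0.0081, adjusted p = 0.37 in edgeR).

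NFKBIB, which encodes IκBβ, had 74.9, 41.4 and 65.1 CPM in CAD-KO2+IR against 68.6, 64.1 and 25.4 CPM in sgVec+IR. TNIP1, an A20-binding protein that restrains the pathway, had 53.8, 34.3 and 45.0 CPM against 63.2, 53.9 and 22.9 CPM. In both genes CAD-KO2+IR replicate 2 and sgVec+IR replicate 3 were the lowest libraries of their groups. Without sgVec+IR replicate 3 the log2 fold change of NFKBIB turned from 0.20 to −0.13 and that of TNIP1 went from −0.07 to −0.40. NFKBIE and BCL3, an IκBε and a nuclear coactivator, had log2 fold changes of −0.32 and −0.10 with intervals that held 0, and of −0.40 and −0.41 without that library.

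In the IKK complex, CHUK (IKKα) had 107, 128 and 109 CPM in CAD-KO2+IR against 94.1, 87.5 and 207 CPM in sgVec+IR. Its log2 fold change of −0.18 turned to 0.34 without sgVec+IR replicate 3 (unadjusted p = 0.046, adjusted p = 0.42 in edgeR). IKBKB (IKKβ) had 25.2, 23.7 and 31.6 CPM against 31.9, 32.5 and 21.0 CPM, a log2 fold change of −0.09, or −0.26 without that library.

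IKBKG encodes NEMO, the regulatory subunit. It had 129, 51 and 118 counts in CAD-KO2+IR and 95, 74 and 0 counts in sgVec+IR. The count of 0 in replicate 3 allows a level of up to 0.212 CPM, against 5.81 and 5.07 CPM in replicates 1 and 2. Without that library the log2 fold change was −0.00062, against 0.56 with it. IKBKG has a pseudogene copy, IKBKGP1, in GENCODE, so its counts depend on how reads shared between copies were treated.

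The adaptors BIRC2 and BIRC3 (the ubiquitin ligases cIAP1 and cIAP2) and TRAF1 and TRAF2 link tumor necrosis factor receptors to IKK. BIRC2 had 63.5, 99.8 and 71.7 CPM in CAD-KO2+IR against 58.2, 58.9 and 79.6 CPM in sgVec+IR, and TRAF2 had 40.3, 22.2 and 32.6 CPM against 36.4, 33.1 and 16.2 CPM. The log2 fold changes were 0.26 (95% interval −0.30 to 0.82) for BIRC2 and 0.15 (95% interval −0.70 to 0.99) for TRAF2. BIRC2 was at 0.42 without sgVec+IR replicate 3 and at 0.044 without CAD-KO2+IR replicate 2, and TRAF2 turned to −0.13 without sgVec+IR replicate 3. BIRC3 (6.50 to 11.9 CPM) and TRAF1 (1.48 to 4.59 CPM), both known NF-kB targets, had log2 fold changes of 0.09 and 0.017, and of 0.34 and −0.29 without sgVec+IR replicate 3. TRAF1 was at −0.0092 when scaled by library size alone.

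Of the 10 chemokines, CXCL16 alone was well expressed. This transmembrane chemokine, the ligand of CXCR6, had 48.9, 45.3 and 48.7 CPM in CAD-KO2+IR against 38.4, 52.6 and 36.9 CPM in sgVec+IR. Its log2 fold change was 0.16 (standard error 0.197, 95% interval −0.30 to 0.63), or 0.07 without sgVec+IR replicate 3.

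CXCL8, which encodes the neutrophil chemokine IL-8, had 18, 17 and 9 counts in CAD-KO2+IR and 6, 9 and 0 counts in sgVec+IR, or 0.98, 0.90 and 0.51 CPM against 0.37, 0.62 and 0 CPM. The groups overlapped, and the log2 fold change of 1.25 (standard error 0.850, 95% interval −0.69 to 3.18, adjusted p = 0.9999 in edgeR) was 0.71 without sgVec+IR replicate 3. A difference was not detectable at this depth.

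CXCL1, CXCL2 and CXCL3 are close paralogs, whose open reading frames of 324 bases were 90.7% to 94.4% identical in GENCODE, so reads may have been split or dropped among them. CXCL1 had 5, 17 and 10 counts in CAD-KO2+IR and 2, 5 and 0 in sgVec+IR. CXCL3 had 4, 3 and 4 counts against 11, 7 and 0, and CXCL2 had 15 counts in all against 4. Of these, CXCL1 and CXCL2 summed higher in CAD-KO2+IR and CXCL3 lower, and the groups overlapped in each. CCL20, a CCR6 ligand, had 4 counts, all in CAD-KO2+IR replicate 2, and CCL28 had 1 count.

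**Figure D2:**
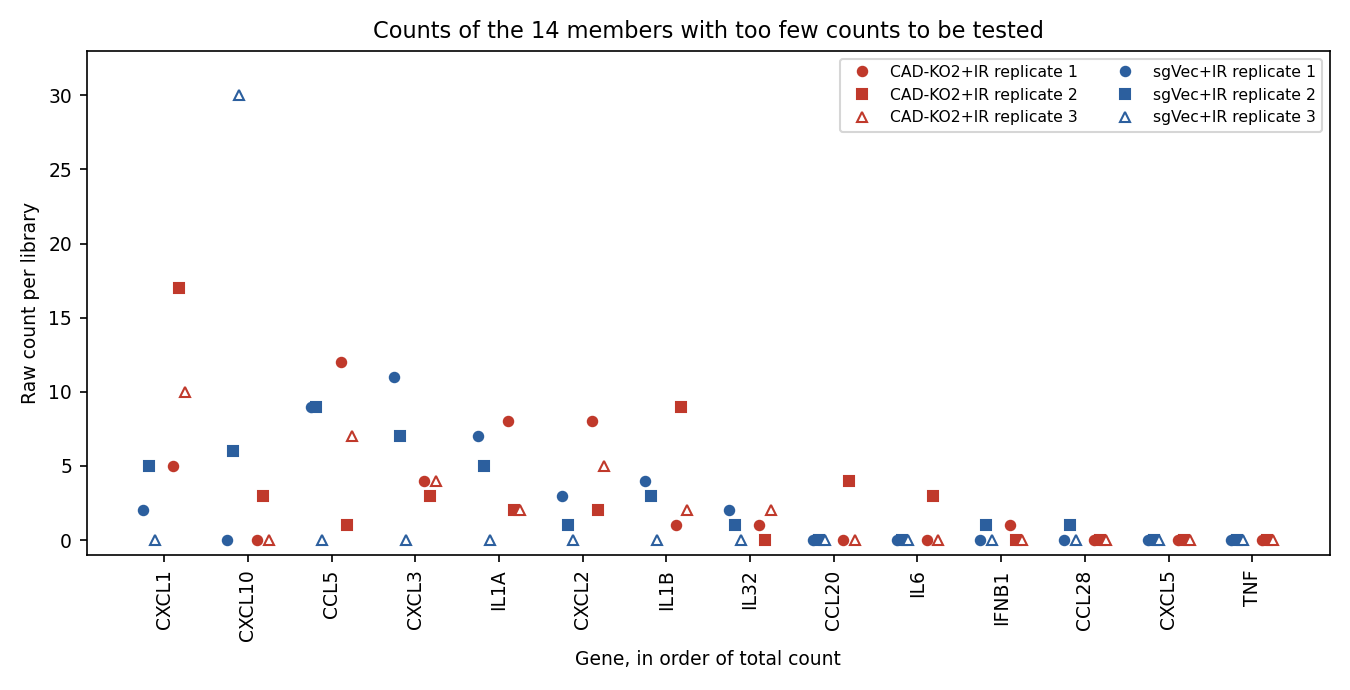
Raw counts per library of the 14 members with too few counts to be tested, in order of total count, with sgVec+IR in blue and CAD-KO2+IR in red. CXCL10 reached 30 counts in sgVec+IR replicate 3 and at most 6 elsewhere, and no other point exceeds 17 counts.

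CXCL10, which draws CXCR3-bearing T cells, had 0, 3 and 0 counts in CAD-KO2+IR and 0, 6 and 30 counts in sgVec+IR. Of its 39 counts, 30 were thus in sgVec+IR replicate 3, a library in which 13 of the 14 members that were not tested had no count. CCL5, another T cell chemokine, had 12, 1 and 7 counts in CAD-KO2+IR and 9, 9 and 0 counts in sgVec+IR. The groups of CCL5 overlapped.

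IFNB1, the type I interferon downstream of STING and IRF3, had 1 count in CAD-KO2+IR replicate 1 and 1 count in sgVec+IR replicate 2. IL6 had 3 counts, all in CAD-KO2+IR replicate 2, and none in sgVec+IR. TNF had none in any library, nor had CXCL5. A count of 0 over a group allows up to 0.0546 CPM for the CAD-KO2+IR group and up to 0.0665 for sgVec+IR (3 counts over the summed scaled library sizes, counting error only). For these genes a difference between the groups was not detectable at this depth.

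The genes IFNB1, IL6, CXCL8, TNF, CCL5 and CXCL10 were also assayed by qPCR, and their primers, 5′ to 3′, are shown because they give the parts of these mRNAs that the assay reads.
IFNB1 forward: gcttggattcctacaaagaagca
IFNB1 reverse: atagatggtcaatgcggcgtc
IL6 forward: agacagccactcacctcttcag
IL6 reverse: ttctgccagtgcctctttgctg
CXCL8 forward: tgatttctgcagctctgtgtg
CXCL8 reverse: tctgtgttggcgcagtgtgg
TNF forward: agggacctctctctaatcagc
TNF reverse: tctcagctccacgccattgg
CCL5 forward: ccagcagtcgtctttgtcac
CCL5 reverse: ctctgggttggcacacactt
CXCL10 forward: gtggcattcaaggagtacctc
CXCL10 reverse: gtggcattcaaggagtacctc
Each forward primer matched transcripts of its own gene alone in GENCODE on the sense strand. The reverse primers of 5 genes matched the antisense strand of the same gene, with products of 166 bases for IFNB1, 132 for IL6, 154 for CXCL8, 168 for TNF and 54 for CCL5. The sequence listed as the CXCL10 reverse primer is identical to the forward one and matched the sense strand, so that no product could be computed for CXCL10 from the listed pair.

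Per length, the cytokine IL18 had a mean of 29.6 CPM per kb (range 21.5 to 48.0) beside 27.4 for NFKB2. NFKB2 was above IL18 in 4 libraries, and IL18 above NFKB2 in 2, CAD-KO2+IR replicate 2 and sgVec+IR replicate 3. Without the latter the means were 25.95 CPM per kb for IL18 and 29.9 for NFKB2. IL18 is made as an inactive precursor in epithelial cells. It had 56.5, 86.7 and 59.8 CPM in CAD-KO2+IR against 69.7, 68.3 and 126 CPM in sgVec+IR. The log2 fold change of −0.38 (standard error 0.305) was −0.03 without sgVec+IR replicate 3.

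LIF, a cytokine of the IL-6 family, had 48.2, 22.6 and 48.6 CPM in CAD-KO2+IR against 42.8, 48.4 and 18.8 CPM in sgVec+IR. In each group 1 library, CAD-KO2+IR replicate 2 and sgVec+IR replicate 3, lay well below the other pair. The log2 fold change was 0.11 (95% interval −0.89 to 1.12), and −0.20 without sgVec+IR replicate 3. IL11, of the same family, had 2.06, 2.16 and 2.11 CPM against 2.87, 3.83 and 0.92 CPM. Its log2 fold change of −0.28 became −0.66 without sgVec+IR replicate 3 (unadjusted p = 0.045, adjusted p = 0.42 in edgeR).

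ICAM1, an adhesion molecule for leukocytes and a classical NF-kB target, had 14.2 to 19.1 CPM in CAD-KO2+IR against 9.52 to 21.4 CPM in sgVec+IR. CSF1, the macrophage growth factor, had 2.69 to 7.52 CPM against 5.43 to 6.71 CPM. Without sgVec+IR replicate 3 the log2 fold change of ICAM1 went from 0.00024 to −0.28 and that of CSF1 from −0.24 to −0.33, and ICAM1 was at −0.023 when scaled by library size alone. ICAM1 shares 815 exon bases with an antisense gene, whose reads cannot be told apart without strand. IL1A, IL1B and IL32 had 24, 19 and 6 counts over all libraries, with no count in sgVec+IR replicate 3.

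Directions depended on which libraries were used. Leaving out CAD-KO2+IR replicate 1 left 12 members above 0 and 14 below, and leaving out CAD-KO2+IR replicate 3 left 12 and 15. The split was 20 and 7 without CAD-KO2+IR replicate 2, 21 and 7 without sgVec+IR replicate 1 and 21 and 6 without sgVec+IR replicate 2. Without sgVec+IR replicate 3 the median of the tested members was −0.12, 12 of the 26 changed sign, and 0 members were called, against 0.167% of all genes. NFKBIZ, CHUK and IL11 had an unadjusted p under 0.05 there, 3 of 28 members tested, against 11.9% of all genes, so their share was near the background. The median standard error of the members was 0.211 without that library and 0.350 with it.

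**Figure D3:**
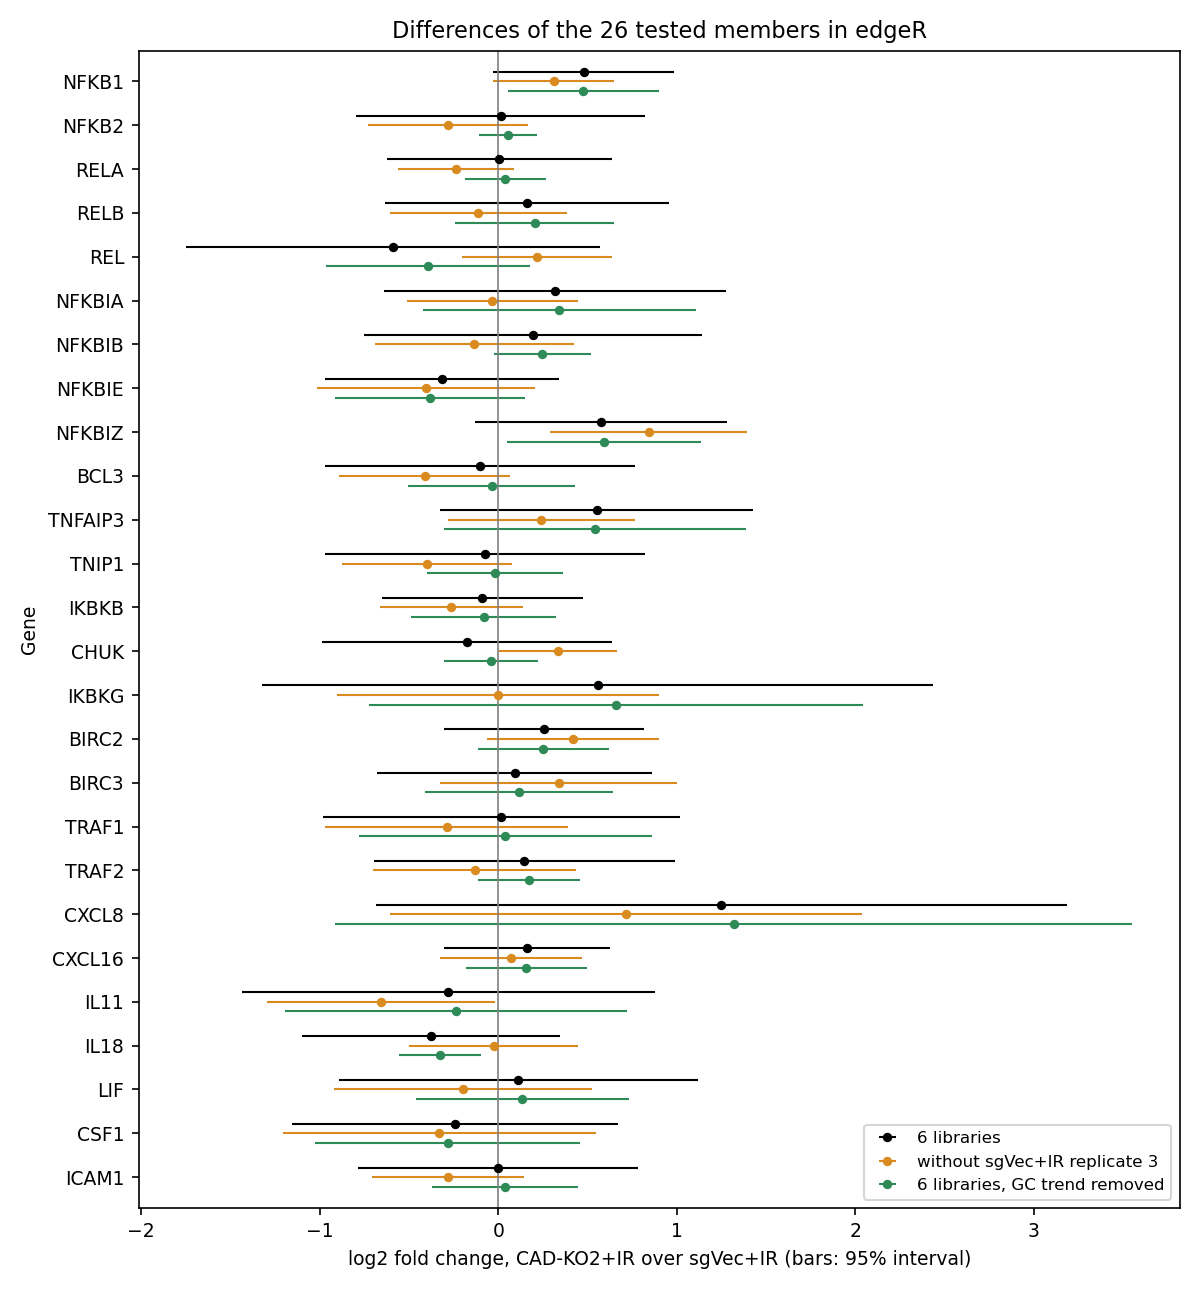
Log2 fold change of CAD-KO2+IR over sgVec+IR for the 26 tested members in edgeR, as points with 95% intervals, for all 6 libraries (black), without sgVec+IR replicate 3 (orange) and with the GC trend removed (green). All black intervals cross 0, and the green ones are narrower for most members.

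Sample weights in limma-voom were 0.0404 for sgVec+IR replicate 3, the lowest, and 0.154 for CAD-KO2+IR replicate 2, the next lowest. In that fit 2 of 26 members were called, against 5.15% of all genes, namely NFKBIZ (log2 fold change 0.87, adjusted p = 0.0047, limma) and IL11 (−0.63, adjusted p = 0.0497, limma). NFKB1 (0.40, adjusted p = 0.0020, limma), CHUK (0.25, adjusted p = 0.023, limma), BIRC2 (0.26, adjusted p = 0.028, limma) and TNIP1 (−0.33, adjusted p = 0.035, limma) passed the adjusted p with a fold change under 1.5, so that 6 members passed it, against 22.3% of all genes. Without adjustment 10 members were under 0.05, against 37.1% of all genes.

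The libraries that stood apart did so along the base composition of the genes. GC content was taken from the longest coding transcript of each gene in GENCODE. Across the 26 tested members, the difference of sgVec+IR replicate 3 from replicates 1 and 2 had a Pearson correlation with GC content of −0.51 (Spearman −0.41), and over 12913 genes it was −0.62 (−0.72). For CAD-KO2+IR replicate 2 against replicates 1 and 3 the correlation was −0.81 (Spearman −0.84) over the members and −0.77 (−0.82) over all genes. The points share their libraries and are not independent replicates.

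Split at 50% GC, a limit chosen after the values were seen, all 18 members at or above it were lower in sgVec+IR replicate 3 and 17 were lower in CAD-KO2+IR replicate 2. Of the 8 members under 50%, 6 were higher in sgVec+IR replicate 3 and 8 in CAD-KO2+IR replicate 2. REL (38.7% GC), CHUK (39.1%) and IL18 (42.3%) were among the higher ones, and NFKB2 (62.4%), NFKBIB (62.3%) and TRAF2 (61.3%) among the lower ones. TNFAIP3 (49.5%) and CXCL8 (33.4%) were the members under 50% that were lower in sgVec+IR replicate 3. The median member was 1.09 lower on the log2 scale in sgVec+IR replicate 3, against 0.11 lower for the median of all genes. With a smooth trend on GC content over all genes subtracted from these differences, the medians were −0.22 for members and −0.027 for all genes. The split at 50% GC was not computed over all genes.

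With a smooth trend on GC content removed from each library (an alternative chosen after seeing the data), the median standard error of the members was 0.196 and again 0 members were called, against 0.139% of all genes. The log2 fold changes were then 0.48 for NFKB1 (95% interval 0.06 to 0.90, unadjusted p = 0.031, adjusted p = 0.49 in edgeR), 0.59 for NFKBIZ (0.05 to 1.14, unadjusted p = 0.036, adjusted p = 0.50 in edgeR) and −0.32 for IL18 (−0.55 to −0.09, unadjusted p = 0.012, adjusted p = 0.39 in edgeR). These were 3 of 26 members at an unadjusted p under 0.05, against 9.24% of all genes. RELA (−0.19 to 0.27), NFKB2 (−0.11 to 0.22) and CHUK (−0.30 to 0.22) had the narrowest intervals for a log2 fold change among the subunits and kinases.

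A wider list of 127 other genes of the pathway was read beside the members, of which 90 were tested and 0 were called in edgeR, against 0.0309% of all genes. At an unadjusted p under 0.05 there were 2, both higher, against 2.85% of all genes. The groups did not overlap for 3 of the 90, against 10.2% of all genes. Of the 25 tested receptors 13 were above 0, of the 36 adaptors, kinases and ubiquitin enzymes 18, and of the 29 other targets 15, with medians of 0.08, 0.0027 and 0.02. The pair of genes was KLF6, a zinc finger transcription factor, and F3, which encodes tissue factor. KLF6 had 145, 139 and 151 CPM in CAD-KO2+IR against 106, 102 and 115 CPM in sgVec+IR, with no overlap between groups, a log2 fold change of 0.43 and an adjusted p of 0.9999 in edgeR. F3 had 60.4, 70.5 and 64.3 CPM against 27.2, 25.9 and 53.5 CPM, again with no overlap, and a log2 fold change of 0.88 (adjusted p = 0.9999 in edgeR) that was 1.30 without sgVec+IR replicate 3 and was then called (adjusted p = 0.036, edgeR). NUAK2 and IL23A had the next smallest p values, with log2 fold changes of −0.49 and −0.89 that did not pass the test. NUAK2 was the third gene without overlap, in the lower direction, with 9.21, 6.91 and 8.77 CPM against 11.8, 10.6 and 12.5 CPM.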

How the data were processed

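Raw counts of reads per gene were deposited by the authors, made with featureCounts after read cleaning in fastp, with 1 column for each library, matched here by sample title. The aligner and strand setting are not given in the sources used here. The submitters' processing notes name the mouse build mm10, whereas the gene identifiers are human, and the labels list the molecule as genomic DNA although an mRNA kit was used.

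The filterByExpr function, set to a count of 10 and a total of 15, kept 12925 genes. CPM are counts over TMM-scaled library sizes. CAD-KO2+IR was set against sgVec+IR in edgeR's quasi-likelihood test (edgeR 4.0.16, R 4.3.3, legacy set to FALSE) with Benjamini-Hochberg adjustment over all genes tested. Called genes had to pass 0.05 after adjustment and 1.5-fold in size, the thresholds of the study. Alternatives used DESeq2 1.42.0, limma 3.58.1 voom with sample weights, other normalization and filters, a replicate block, each library left out, and a lowess trend on GC content (span 0.3). Scripts were tested on simulated data that held no outlying library and no GC trend, so their behavior under these was not tested. Total counts per library limit the precision for genes with few counts, whose intervals are wide. Spread between libraries also limits precision, and NFKB2, with 12331 counts in all, had a standard error of 0.341 over 6 libraries.

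Exon length and GC content came from GENCODE release 29, which held 19823 of the 20020 gene identifiers. The members and lists were chosen with earlier results of these data known. Values per library are given for members measured by qPCR, those with an unadjusted p under 0.05 with or without sgVec+IR replicate 3, those whose groups do not overlap and the 12 with the highest mean CPM, and up to 4 genes of the wider list are named. REL, IKBKG, NFKBIA and the counts of CXCL1 and CXCL3 were added after their values were seen. For same-numbered replicates the correlation of their deviations from the group means was 0.47, −0.54 and −0.38. It was 0.55 between CAD-KO2+IR replicate 2 and sgVec+IR replicate 3, the libraries that stood apart. Because those libraries dominate the deviations, this check cannot tell whether same-numbered replicates shared a culture or batch.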

Additional observations from a re-analysis of the deposited data

How the results depend on the processing

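The count of called members, 0 up and 0 down, held under every alternative except limma-voom with sample weights, which called 1 up (NFKBIZ) and 1 down (IL11). The cause was not tested. Members at an unadjusted p under 0.05 were 0 higher and 0 lower in edgeR (2.85% of all genes in both directions) and 1 higher in DESeq2 (3.21%). In limma-voom 4 were higher and 6 lower (37.1% of all genes). With the GC trend removed 2 were higher and 1 lower (9.24%). The numbers were the same with it removed and without sgVec+IR replicate 3, and 1 and 1 with the trend removed with the replicate block. Without the filter on low counts 1 was lower. For fits given here without a percentage, the share of all genes was not computed, and their counts are not read as results. Across the fits that each left out 1 library, members ranged from 0 to 2 higher and from 0 to 1 lower. The highest numbers were without sgVec+IR replicate 3, where 11.9% of all genes were under 0.05. The replicate block called 0 members (0 of all genes, against 4 without it), with a median log2 fold change of 0.08. Of the wider list 1 gene was called up and 3 down in limma-voom, 4 of 90 where 5.15% of all genes were called. With 1 library left out 0 to 1 were called up. The 1 gene was called without sgVec+IR replicate 3, of 95 tested, where 0.167% of all genes were called. With the GC trend removed and without that library 1 of 95 was called up, where 65 of 13141 genes were called up and 131 down. The median of the tested members ranged from −0.12 to 0.20 with 1 library left out.

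Directions of single members turned, and none of these values was called. NFKB2 was −0.0086 with library sizes alone, −0.14 in limma-voom and −0.28 to 0.20 with 1 library left out. RELA was −0.018 with library sizes alone, −0.17 in limma-voom, −0.043 with the GC trend removed and without sgVec+IR replicate 3, and −0.24 to 0.15 with 1 library left out. REL (0.18), CHUK (0.25), CSF1 (0.071), TRAF2 (−0.034), RELB (−0.11), TRAF1 (−0.11) and ICAM1 (−0.15) turned in limma-voom, and TRAF1 (−0.0092) and ICAM1 (−0.023) with library sizes alone. ICAM1 was −0.0040 with at least 1 CPM in 3 libraries. CHUK (0.050), BCL3 (0.012), LIF (−0.043), BIRC3 (−0.087), TRAF1 (−0.17) and ICAM1 (−0.10) turned with the GC trend removed and without sgVec+IR replicate 3. TNIP1 was 0.010 with the replicate block and 0.0074 with the block and the GC trend removed. With 1 library left out the log2 fold change ran from −0.88 to 0.22 for REL, −0.39 to 0.34 for CHUK, −0.13 to 0.37 for TRAF2, −0.40 to 0.21 for TNIP1, −0.20 to 0.40 for LIF, −0.13 to 0.44 for NFKBIB, −0.26 to 0.023 for IKBKB, −0.00062 to 1.09 for IKBKG, −0.66 to 0.12 for IL11, −0.11 to 0.35 for RELB, −0.034 to 0.65 for NFKBIA, −0.41 to 0.15 for BCL3, −0.20 to 0.34 for BIRC3, −0.29 to 0.45 for TRAF1, −0.57 to 0.081 for CSF1 and −0.28 to 0.20 for ICAM1. In all, 18 of the 26 tested members turned under at least 1 alternative, and the other 8 (NFKB1, NFKBIE, NFKBIZ, TNFAIP3, BIRC2, CXCL8, CXCL16 and IL18) kept their direction under those run.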
